A study of Xenopus laevis with 6 samples.

Results

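The SOCS feedback inhibitors *socs3* and *socs2* were examined in brain and pituitary tissue of juvenile *Xenopus laevis* frogs after an injection of leptin into the brain ventricles. The members were taken by symbol, as every probe set annotated to a single gene whose name, without the homeolog suffix, is *socs3* or *socs2*. This gave 3 probe sets of the 32539 tested on the array: *socs3.L* (Xl2.2213.1.S1_at), *socs3.S* (Xl2.26512.1.S1_at) and *socs2.S* (Xl2.50377.1.S1_at). *X. laevis* carries 2 related genomes, so most genes exist as a pair of homeologs, and the suffixes .L and .S tell the long-chromosome from the short-chromosome member. Both copies of *socs3* were therefore measured, whereas *socs2* was measured through its .S copy, and *socs2.L* was not analysed here. Both genes were selected on the leptin against saline differences in these same frogs, so those differences are given below as a description with no test of their own.

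Saline frogs (frogs 1 to 3) received 0.6% saline, and leptin frogs (frogs 4 to 6) received recombinant *X. laevis* leptin (rxLeptin) at 20 ng per g of body weight. A block of preoptic area, hypothalamus and pituitary was dissected from each animal 2 h later, and RNA from each frog was hybridised to 1 Affymetrix array. All frogs were juveniles with an average weight of 0.8 g, and no genetic modification is named. All signals are the authors' log2 values, so a difference of 1 is a doubling of signal, and n = 3 frogs per group throughout.

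SOCS proteins end signalling by cytokine receptors. They bind phosphorylated tyrosines through a Src-homology domain and recruit a ubiquitin ligase through the SOCS box, a short carboxy-terminal segment that holds elongins and a cullin. In mammals, leptin activates its receptor, the kinase JAK2 and the transcription factor STAT3 in hypothalamic neurons. STAT3 induces *Socs3*, whose product binds the receptor and JAK2 and shuts the pathway off. Mammalian *Socs2* is best known as a target of STAT5 that restrains growth hormone signalling.

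*socs3.L* was higher in every leptin frog than in any saline frog. Its log2 signal was 5.06, 5.07 and 5.00 in saline frogs 1, 2 and 3, and 6.38, 6.09 and 6.29 in leptin frogs 4, 5 and 6. The saline frogs lay almost on 1 value, with a mean of 5.04 ± 0.04 (SD, n = 3). The leptin frogs were more spread, at 6.25 ± 0.15 (SD, n = 3), but their lowest value stood 1.02 above the highest saline value. No other of the 32539 probe sets had a wider gap with the leptin frogs on top (0 wider). By the size of the mean difference alone, 33 probe sets were higher in leptin frogs by more than *socs3.L*. The mean difference was 1.21 (moderated SE 0.10), a 2.32-fold higher signal, and any single leptin frog compared with any single saline frog gave between 2.03-fold and 2.61-fold.

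*socs3.S* showed the same separation. Its signal was 6.13, 6.25 and 6.14 in saline frogs 1, 2 and 3, and 7.09, 7.13 and 7.30 in leptin frogs 4, 5 and 6. The group means were 6.17 ± 0.07 and 7.18 ± 0.11 (SD, n = 3 each), with a gap of 0.84 between the groups. Only 2 probe sets had a wider gap in that direction, *socs3.L* and a probe set without a gene symbol. The mean difference was 1.00 (SE 0.09), a 2.01-fold higher signal, and single pairs of frogs ranged from 1.79-fold to 2.26-fold.

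**Figure D1:**
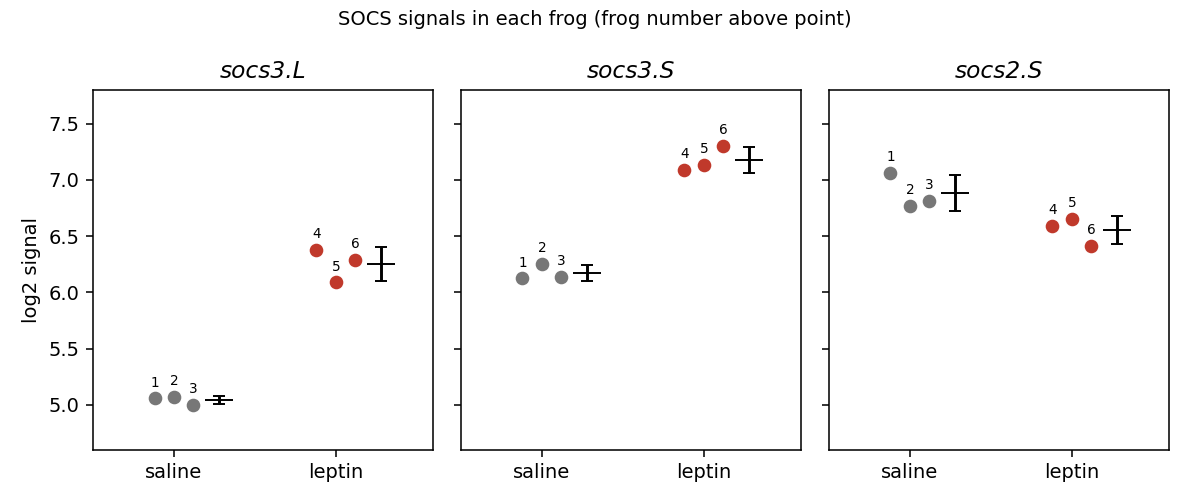
Log2 signal of each member in each frog, with saline frogs in grey and leptin frogs in red, frog numbers above the points, and the group mean ± SD (n = 3) as a black bar beside them. Both *socs3* copies separate the groups by 0.84 or more, whereas the *socs2.S* groups lie 0.12 apart in the other direction.

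*socs2.S* went the other way and by much less. Its signal was 7.07, 6.77 and 6.81 in saline frogs 1, 2 and 3, and 6.59, 6.65 and 6.41 in leptin frogs 4, 5 and 6. The groups did not overlap, but the highest leptin frog lay only 0.12 below the lowest saline frog. The means were 6.88 ± 0.16 and 6.55 ± 0.13 (SD, n = 3 each), a difference of -0.33 (SE 0.11), or a 1.26-fold lower signal with leptin. The extremes were saline frog 1 at the top and leptin frog 6 at the bottom. With both left out, an alternative added after the values were seen, the difference was -0.17 (SE 0.09). Leaving out the highest saline and the lowest leptin value must bring the means closer, so nothing is read from that drop.

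In all, 2 of 3 members had every leptin frog above every saline frog, a pattern seen in 5.15% of all tested probe sets, and 1 of 3 had every leptin frog below, which was seen in 6.78%. Nothing is read from these shares, because the members were picked with the contrast known. In the limma fit over all probe sets, 0% of probe sets (0 of 32539) passed a Benjamini-Hochberg adjusted p of 0.05, the members included, and 4.71% (1533) had an unadjusted p under 0.05. With no such call, the folds above stand as measured separations in 6 frogs. By the labels each array is a different frog, so p-values set the group difference against variation between animals. In limma that variation is moderated over all probe sets.

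**Figure D2:**
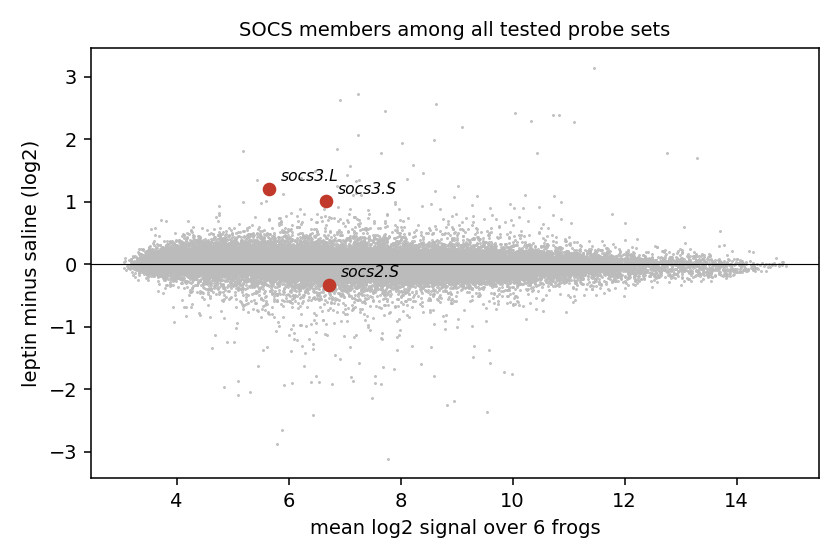
Each grey point is 1 of the 32539 tested probe sets, with its mean log2 signal over the 6 frogs on the horizontal axis and the leptin minus saline difference (log2) on the vertical axis. The *socs3* copies, in red at 1.21 and 1.00, lie above the bulk of probe sets of their brightness, and *socs2.S*, at -0.33, lies at its lower side.

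The copies of *socs3* were compared through the difference between their signals within each frog, which asks whether they changed by unequal amounts. Their absolute signals come from different probe sets and say nothing of which copy is more abundant. The *socs3.L* minus *socs3.S* value was -1.07, -1.18 and -1.14 in saline frogs 1, 2 and 3, and -0.71, -1.04 and -1.02 in leptin frogs 4, 5 and 6. The leptin values were all above the saline values, though frogs 5 and 6 cleared saline frog 1 only narrowly. On the frog 6 array, probe sets with saline signals like *socs3.L* stood at a median of 0.17 above their saline mean. Those like *socs3.S* stood at 0.02, and the difference between the copies was not adjusted for this. The mean moved by 0.21, from -1.13 ± 0.06 to -0.92 ± 0.18 (SD, n = 3 each). The exact permutation p was 0.1 (two-sided), the smallest that 3 frogs against 3 can give. The copies were chosen with their differences known, so nothing is read from this p. Frog 4 carried much of the 0.21, since the value without that frog was 0.10. The exact permutation p was 0.2 whichever 1 frog was left out. That is the smallest that 2 frogs against 3 can give, so nothing about frog 4 can be read from it. Across the 6 frogs the copies correlated at r = 0.98, which mostly restates the split between the groups. Within the leptin group the copies did not peak in the same animal, because *socs3.L* was highest in frog 4 and *socs3.S* in frog 6. Whether each probe set reads its own copy alone was not tested.

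The signals were placed against the lower end of the array's range. *socs3.L* lay at the 18.9th percentile of all tested probe sets in saline frogs and at the 34.8th in leptin frogs. The corresponding percentiles were 33.8 and 47.0 for *socs3.S*, and 42.9 and 38.6 for *socs2.S*. The array also carries 86 control probe sets for genes or tags that are not from the frog. In saline frogs *socs3.L* lay above 91.9% to 94.2% of them, and in leptin frogs 4, 5 and 6 above 98.8%, 97.7% and 94.2%. The share in leptin frog 6 was thus no higher than in saline frog 2. By distance, *socs3.L* was 0.90 to 0.94 above the control median in the saline frogs, against 2.27, 2.06 and 1.33 in leptin frogs 4, 5 and 6. No detection call was used here, so the folds hold for signals as deposited.

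The array of leptin frog 6 stood apart in these controls. Their median was 4.16, 4.16 and 4.05 in saline frogs 1, 2 and 3, 4.11 and 4.03 in leptin frogs 4 and 5, and 4.95 in leptin frog 6, which had the highest value of all frogs in 84 of the 86. Frog probe sets with saline signals like those of the members, which lay above most of these controls, moved far less on that array. Frog probe sets as faint as the typical control were not examined. Over 2123 probe sets whose saline mean lay within 0.25 of that of *socs3.L*, the median distance from the saline mean was -0.02, -0.02 and 0.17 in frogs 4, 5 and 6. *socs3.L* itself stood 1.34, 1.05 and 1.25 above its saline mean in the same frogs. For the 2089 neighbours of *socs3.S* the medians were 0.01, 0.01 and 0.02, against 0.92, 0.96 and 1.13 for *socs3.S*. For the 2090 neighbours of *socs2.S* they were 0.02, 0.03 and -0.07, against -0.29, -0.23 and -0.47 for *socs2.S*. Of the neighbours, 0 of *socs3.L* and 5 of *socs3.S* were higher in leptin frogs by at least as much as the member, whereas 125 of *socs2.S* (5.98%) were lower by at least as much. Without frog 6 the differences were 1.19 for *socs3.L*, 0.94 for *socs3.S* and -0.26 for *socs2.S*. When each array was instead taken relative to its control median, a scaling added after the values were seen, the mean differences were 0.97 (SE 0.35) for *socs3.L* and 0.76 (SE 0.35) for *socs3.S*. The groups of both copies stayed apart, but the gaps shrank from 1.02 to 0.39 and from 0.84 to 0.26, and the *socs2.S* groups overlapped.

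**Figure D3:**
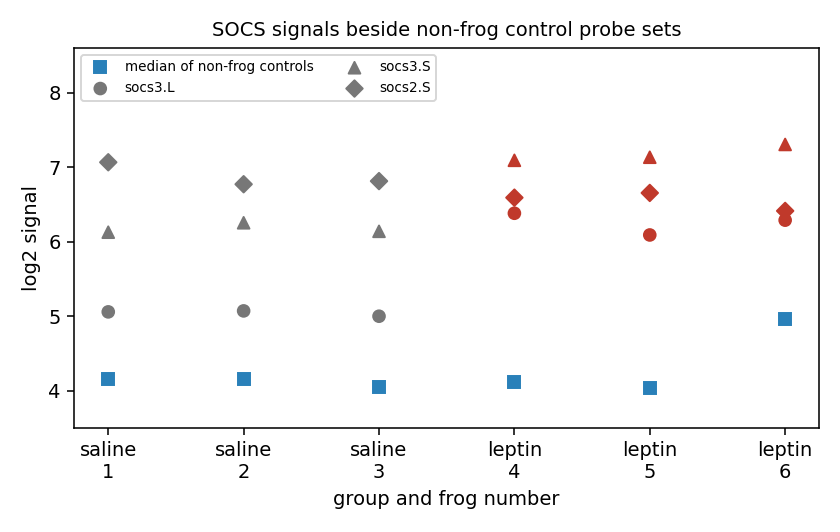
Log2 signals of *socs3.L* (circles), *socs3.S* (triangles) and *socs2.S* (diamonds) in each frog, grey for saline and red for leptin, with the median of the 86 non-frog control probe sets as blue squares. The control median is 4.95 in leptin frog 6 and between 4.03 and 4.16 in the other 5 frogs.

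The other SOCS genes on the array differed little between the groups. The family was measured by 12 probe sets, and the 9 that were not members covered *socs1*, *socs5*, *socs6* and the gene annotated *socs3l*, a *socs3*-like gene chosen after its values were seen. In all 9 the groups overlapped, with differences from -0.06 to 0.10, and 0 of 9 had an unadjusted limma p under 0.05. Over all probe sets the shares were 5.15% wholly above, 6.78% wholly below and 4.71% under that p, so counts of 0 in 9 are near the background. The inhibitor of interferon signalling *socs1* differed by 0.05 (*socs1.L*, SE 0.12) and by 0.07 on the brighter *socs1.S* probe set (SE 0.12). For *socs3l.S* the 3 probe sets gave 0.01 (SE 0.12), 0.10 (SE 0.08) and -0.03 (SE 0.16), with signals from 4.01 to 7.20. *socs5.L*, a relative with a long amino-terminal region, differed by -0.06 on its brighter probe set (SE 0.10) and by 0.06 on the other (SE 0.08). *socs6.L* differed by 0.05 (SE 0.10). The differences between *socs3* and these relatives were not tested. *cish*, the founding member of the family, had no single-symbol probe set.

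**Figure D4:**
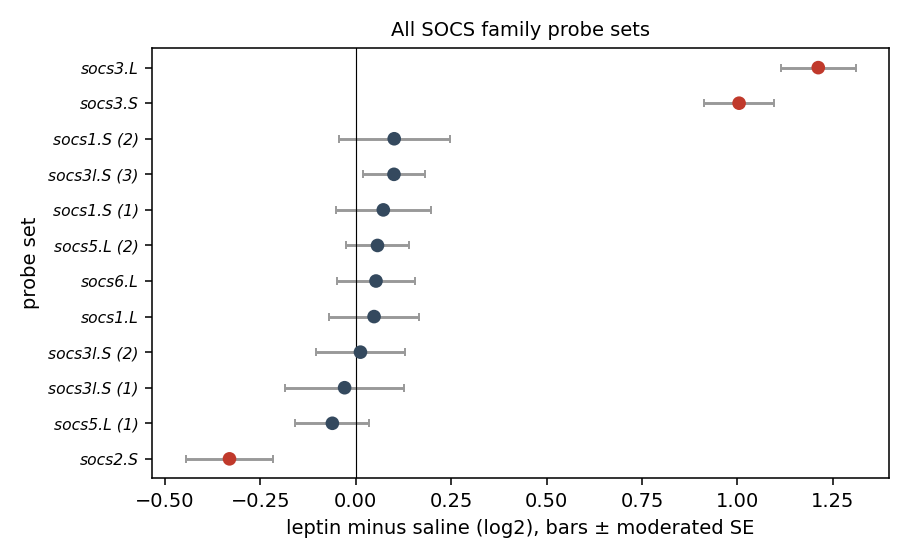
Leptin minus saline difference (log2) for each of the 12 SOCS family probe sets, with bars of ± 1 moderated SE. Genes with several probe sets are numbered, members are red, and the 9 other probe sets lie between -0.06 and 0.10.

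The machinery around the SOCS proteins was described through 7 gene lists, each copy of a gene standing for itself through its brightest single-symbol probe set. Over the 79 gene copies of the lists, 5 (6.33%) had every leptin frog above every saline frog, against 4.40% of all 11303 gene copies. A further 4 (5.06%) lay wholly below, against 9.91%. At an unadjusted limma p under 0.05 there were 2 of 79 (2.53%), against 5.16% of all copies, and 0 passed the adjusted threshold. The median difference over all gene copies was -0.02, the value against which the medians below are read. Counts below are likewise read against 4.40% wholly above, 9.91% wholly below and 5.16% under the unadjusted p.

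The partners that the SOCS box recruits were measured as 5 copies. At the adjusted threshold, which 0 of the 32539 probe sets passed, 0 rose and 0 fell. At an unadjusted limma p under 0.05 there were 0 of 5, against 5.16% of all gene copies. Of the 5, 1 lay wholly above and 1 wholly below, patterns seen in 4.40% and 9.91% of all gene copies. The median difference of the 5 was -0.12. The RING protein *rnf7.L* was at -0.19 (SE 0.09), with its groups just apart, the scaffold *cul5.L* at 0.15 (SE 0.10) and elongin B, *elob.L*, at -0.13 (SE 0.11). The *cul5.L* groups were 0.01 apart.

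Among 13 copies of other inhibitors of the pathway, 0 passed in either direction (0 at an unadjusted p under 0.05), and the median was -0.02. Of the 13, 3 lay wholly below and 1 wholly above the saline frogs, patterns seen in 9.91% and 4.40% of all gene copies. The phosphatase *ptpn2*, which removes phosphate from JAKs and STATs in mammals, was at -0.18 (*ptpn2.S*, SE 0.08) and -0.15 (*ptpn2.L*, SE 0.08). Both copies lay wholly below, with gaps of 0.11 and only 0.01. The third was *pias1.L*, at -0.10 (SE 0.07) with a gap of 0.04. The adaptor *grb10.L* was at 0.14 (SE 0.07). *ptpn1.L*, the phosphatase that acts on JAK2 in the leptin pathway of mammals, differed by 0.04 (SE 0.13).

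Receptors, kinases and STATs were measured as 16 copies, and in 0 of them were the groups separate. Of all gene copies, 4.40% lay wholly above and 9.91% wholly below. None passed in either direction (limma, 0 at an unadjusted p under 0.05), with a median of -0.01. The leptin receptor *lepr.S* had 2 probe sets, both faint, with differences of -0.01 (SE 0.19) and 0.06 (SE 0.15). *stat3.2.L*, the copy annotated for *stat3*, was at 0.19 (SE 0.30), and *jak2.L* at -0.04 (SE 0.11). The shared cytokine receptor subunit *il6st.L* was at 0.35 (SE 0.26), and its signal of 5.96 in leptin frog 6 stood above 4.87 to 5.40 in the other frogs. The other copy, *il6st.S*, was at -0.005 (SE 0.10). The prolactin receptor copies pointed opposite ways, at 0.25 (*prlr.S*, SE 0.13) and -0.73 (*prlr.L*, SE 0.45).

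Ligands that can induce SOCS genes were measured as 7 copies, with 0 passing in either direction. At an unadjusted limma p under 0.05 there were 0 of 7, against 5.16% of all gene copies. Of the 7, 1 lay wholly above and 0 wholly below, patterns seen in 4.40% and 9.91% of all gene copies. The median of 2.28 over the 7 was set by the growth hormone and prolactin copies, which read low in saline frog 1. There, *gh1.S* read 4.50 against 11.5 to 12.6 in the other frogs, and *prl.1.L* read 3.54 against 12.7 to 13.4. Leptin's own transcript, *lep.S*, was near the bottom of the range, between 3.77 and 3.97 in saline and between 4.01 and 4.26 in leptin frogs. The difference was 0.22 (SE 0.10). Its signal lay below the median of the non-frog controls in every frog but leptin frog 4. In leptin frog 6 it was 4.09, against a control median of 4.95. Interleukin 1 beta, *il1b.S*, differed by 0.20 (SE 0.33) and the gp130 ligand *lif.L* by 0.01 (SE 0.08).

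Genes that STAT3 and cytokines induce in mammals were measured as 28 copies, with a median of 0.05. At an unadjusted p under 0.05 there were 2 copies higher and 0 lower, and 0 passed the adjusted threshold. Of all gene copies, 5.16% were under that unadjusted p in either direction. The early transcription factor *fos.S* was at 11.3, 11.3 and 11.5 in saline frogs 1, 2 and 3 and at 11.9, 12.4 and 12.3 in leptin frogs 4, 5 and 6, a difference of 0.80 (SE 0.15). *cebpd.L*, a transcription factor of the acute phase response, differed by 0.57 (SE 0.13). Its other copy, *cebpd.S*, was at 0.28 (SE 0.16) with overlapping groups. *vegfa.L*, a vascular growth factor, differed by -0.23 (SE 0.10). Both *junb* copies were at 0.24 (SE 0.22 for *junb.L* and 0.26 for *junb.S*) with overlapping groups. Of these 28 copies, *fos.S* and *cebpd.L* alone kept every leptin frog above every saline frog, a pattern seen in 4.40% of all gene copies. Nothing about the list is read from these counts of 2 in 28. The 8 copies of STAT5 and growth hormone targets, the list that *socs2* would belong to, had a median of -0.03. They had 0 calls in either direction (0 at an unadjusted p under 0.05). Their groups were separate in 0 of 8, where 4.40% of all gene copies lay wholly above and 9.91% wholly below. *igfbp5.L* was at 0.31 (SE 0.17), *bcl6.S* at -0.16 (SE 0.09) and *spry2.L* at 0.09 (SE 0.10). The *igfbp5.L* signal was 5.76 in leptin frog 6 and 4.90 to 5.29 in the other frogs.

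**Figure D5:**
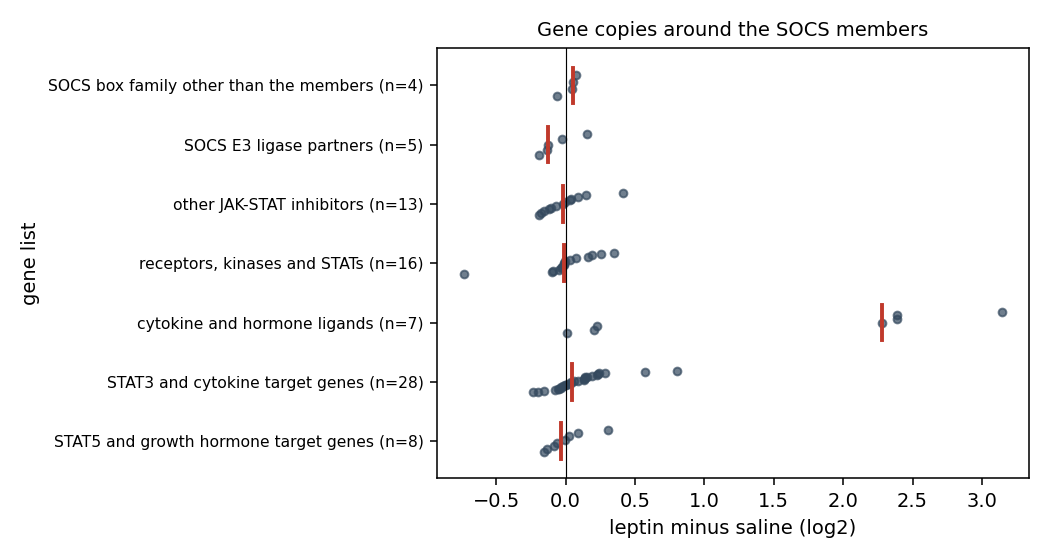
Leptin minus saline difference (log2) of each gene copy in the 7 lists, 1 point per copy, with the list median as a red line and the number of copies in brackets. The medians lie between -0.12 and 0.05 except for the ligands (2.28), where the growth hormone and prolactin copies follow the low pituitary signal of saline frog 1.

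The genes whose pattern over the 6 frogs was most like each member were ranked by Pearson's r among 3349 gene copies that varied (SD of at least 0.2). For *socs3.L* the closest was *socs3.S* (0.98), followed by *zfp36.L*, which destabilises mRNAs (0.96), the stress-responsive factor *atf3.L* (0.96), the scaffold *cass4.L* (0.96), *orc1.L* of the replication origin complex (0.95) and the MAP kinase phosphatase *dusp5.S* (0.95). For *socs3.S* they were *socs3.L*, the antiproliferative factor *btg2.S* (0.97), the lipid kinase *pik3c3.L* (0.96), *orc1.L* (0.96) and both copies of the nuclear receptor *nr4a1* (0.95 each). With 6 points in 2 clusters, these values single out genes that split the same 2 groups, and 15 copies exceeded 0.9 for *socs3.L* and 20 for *socs3.S*. Among the named genes, *btg2.S* had the larger difference at 0.90 (SE 0.10), still below that of either *socs3* copy, and *cass4.L* the smallest at 0.37 (SE 0.08).

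The neighbours of *socs2.S* were other genes. The closest were *cfap299.L*, *cnep1r1.S*, *scrn3.L* and *rufy1.L* (0.99 each), followed by *gemin6.L* and *optn.S* (0.97 each), and 57 copies exceeded 0.9. Like *socs2.S*, all 6 were highest in saline frog 1 and lowest in leptin frog 6, with differences from -0.49 (*cfap299.L*) to -0.30 (*rufy1.L*). These genes were picked by r over the same 6 frogs, which largely fixes that shared order, so nothing is read from it. Frog 1 stood apart by its pituitary hormones and its mean of leukocyte markers, and frog 6 by its controls. Saline frog 3, which stood apart by its skeletal muscle markers, read 6.81 for *socs2.S*, between the other saline frogs. The part of any of these in the *socs2.S* difference was not tested.

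Markers of the tissue and of other cells were set beside these results. Of 20 markers fixed for preoptic area and hypothalamus, 11 were measured, among them *sst.1.L*, *pmch.L*, *trh.S* and *nkx2-1.L* with mean signals from 9.91 to 13.1, and *rax.S* was the faintest at 5.42. The list mean was 8.77 to 9.50 in saline and 8.96 to 9.03 in leptin frogs. Fewer cells of a type and less RNA per cell cannot be told apart in such blocks. The mean of 9 of 16 pituitary markers was 6.28 in saline frog 1 and 9.89 to 10.8 in the other 5 frogs. The mean of 13 of 15 skeletal muscle markers was 8.49 in saline frog 3 and 6.32 to 6.80 in the others. For 9 of 15 markers of microglia and other leukocytes, cells that can express *socs3*, it was 7.25 to 7.98 in saline and 7.38 to 7.55 in leptin frogs. Saline frog 1 was the highest there, at 7.98. For 6 of 9 markers of choroid plexus and ependyma the mean was 7.21 in saline frog 1 and 7.39 in leptin frog 4. In the other frogs it was 8.04 to 8.31. Over the 10 marker lists, exact permutation p-values (two-sided) lay between 0.1 and 0.9, and the smallest Benjamini-Hochberg adjusted value over the 10 lists was 0.667. With 3 frogs against 3 no such p can fall below 0.1, so these tests cannot show that tissue content was alike. The list with the smallest p was that of astrocytes and radial glia, 5 of 9 markers, with a mean lower by 0.10 in the leptin frogs. Its members went both ways, with *slc1a3.L* at -0.41 and *glul.S* at -0.40, *fabp7.L* and *vim.S* at 0.14 each and *sox9.S* at 0.03.

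The *socs3* signals were also set beside the pituitary and muscle signals of the saline frogs. Saline frog 1, low in pituitary signal, and saline frog 3, high in muscle signal, read 5.06 and 5.00 for *socs3.L* and 6.13 and 6.14 for *socs3.S*. As covariates, pituitary signal was the mean of *pomc.L*, *gh1.L* and *cga.S*, and muscle signal that of *acta1.S*, *tnnt3.S*, *mylpf.L* and *ckm.L*. They mainly set saline frog 1 and saline frog 3 apart, so each leans on 1 frog. With the pituitary covariate the differences were 1.22 (SE 0.12) for *socs3.L* and 0.99 (SE 0.11) for *socs3.S*. With the muscle covariate they were 1.19 (SE 0.12) and 0.96 (SE 0.11). No covariate was fitted for the leukocyte or the choroid plexus and ependyma markers. The part of block content in the *socs3* differences was not tested. For *socs2.S*, frog 1 read 7.07 and the next saline frog 6.81. Its difference was -0.25 (SE 0.11) with the pituitary covariate and -0.24 (SE 0.11) without frog 1. These 2 values are not separate checks, because the pituitary covariate is low in frog 1 alone.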

How the data were processed

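RNA from 3 saline and 3 leptin frogs was measured on Affymetrix arrays. The deposited values are log2 signals. Of tools, the submitters' processing notes list affy, limma and RMA, with neither version nor role, and nothing further is stated. The table held 32635 probe sets, of which 96 AFFX controls were not tested. Of 32539 tested, 15495 had 1 symbol, 279 several and 16765 none in the array annotation. RefSeq (Xenopus_laevis_v10.1) served for names only, matching 15384 by gene identifier and updating 2. The groups were compared by limma 3.58.1 under R 4.3.3 (lmFit, eBayes, two-sided, no covariate), with Benjamini-Hochberg adjustment over all tested probe sets. SEs are limma's moderated SEs. Single values used exact permutation tests (scipy 1.17.1). The fit was tested on simulated data.

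The members and lists were chosen with earlier results of these data known. Genes named were all members, the 3 copies with the smallest p in each list, *lepr*, *stat3* and *cish*, and the 6 copies most like each member. Others (*socs3l*, *il1b*, *lif*, *junb*, *ptpn1*, *pias1*, *jak2*, *socs1.L*, *il6st.S*, *cebpd.S* and markers) were chosen after their values were seen. Protein and promoter sequences were not used here. Array medians were 7.36 to 7.46 and correlations between arrays 0.983 to 0.995. Arrays have no depth, and their number limits precision.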

Additional observations from a re-analysis of the deposited data

Results flagged for a closer look

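In data outside the comparisons, the control probe sets that are not for frog genes had a median log2 signal of 4.95 in leptin frog 6, above the saline frogs (4.05 to 4.16) and above leptin frogs 4 and 5 (4.11 and 4.03). Which of these controls were added to the samples is not given in the sources used here, and the members' values without that frog, beside neighbours of like brightness and relative to the control median are given with the results.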

How the results depend on the processing

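No paired analysis was possible because the labels number the frogs 1 to 3 and 4 to 6, so the groups share no replicate number. Each member kept its direction in all 14 alternatives run, 3 of them added after seeing the data. Leaving out 1 frog gave 1.15 to 1.29 for *socs3.L*, 0.94 to 1.05 for *socs3.S*, -0.39 to -0.24 for *socs2.S* and 0.10 to 0.27 for the difference between the *socs3* copies. Relative to the control median, which shifted the median of all probe sets by -0.24, the member differences were 0.97, 0.76 and -0.57. Less the median of all probe sets they were 1.20, 1.00 and -0.34, the same as in the deposited scale. This is so by arithmetic, because the control scaling takes 1 value from each whole array. The control scaling gave 67 probe sets past the adjusted threshold (15 higher, 52 lower) and 538 at an unadjusted p under 0.05 (54 higher, 484 lower, against 662 and 871 in the deposited scale). With frogs 1 and 6 both left out, *socs2.S* was at -0.17 and 1 probe set passed adjusted. Leaving out 1 frog gave 0 to 4 adjusted calls (4 without saline frog 2, none a member) and 1060 to 2149 unadjusted, and array weights gave 2301. The causes were not tested. The brighter 50% of probe sets holds no member. Counting every probe set of the lists stayed within 1.5 times for both directions.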
